A study of Mus musculus with 6 samples.

Results

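Tnf, Il6, Il10, Osm, Lif, Il15, Tgfb1 and Inhba encode secreted cytokines of the TNF, interleukin-6, interleukin-10, interleukin-15 and TGF-beta families, and they were picked by symbol from the deposited count table. All 8 genes were among the 26519 in the table, and all 8 were among the 12580 that passed the filter on low counts. The libraries came from dendritic cells, which take up antigen and present it to T cells, isolated from tumours grown from MC38, a mouse colon carcinoma line. One group was taken from MAVS knockout hosts (3 libraries) and the other from wild-type (WT) hosts (3 libraries), both on day 10 after inoculation. The implanted tumour cells were MC38 in both groups, so the knockout is a property of the host. The sources used here do not give the deleted exon, the host strain, age and sex, or the gate used to sort the cells. Whether a replicate was 1 animal or a pool is likewise not stated, and p-values therefore cover only the spread among these 6 libraries, which may be technical.

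MAVS is the mitochondrial adaptor of the RIG-I-like receptors, which sense cytosolic RNA and switch on NF-kB and interferon genes. TNF and interleukin-6 are early products of NF-kB in myeloid cells, interleukin-10 dampens the same response, and oncostatin M and LIF share the receptor chain gp130 with interleukin-6. Interleukin-15 is presented by dendritic cells to natural killer and CD8 T cells. TGF-beta 1 and activin A, the dimer of the Inhba product, act through SMAD proteins and are secreted with a prodomain that has to be cut off or released. The comparison asks how loss of MAVS in the host alters these transcripts in dendritic cells of the tumour.

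Mavs itself stood at 8.99, 12.8 and 9.45 CPM (counts scaled to the TMM-adjusted library size) in the knockout libraries, against 33.9, 39.7 and 39.7 CPM in the WT libraries. Every knockout library was below every WT library, as the labels say, although transcripts remained. Library totals ran from 14466640 to 18862534 counts in knockout and from 17357031 to 20851733 counts in WT libraries. Macrophage transcripts were abundant in both groups. The 12 macrophage markers summed to 28331 to 35876 CPM in knockout and 26610 to 31868 CPM in WT libraries. Of the 12, 0 passed the test, and 1, Mrc1, is also in the list of interleukin-10 targets used here. Lyz2 made up most of that sum, averaging 22105 CPM in knockout and 21636 CPM in WT libraries (log2 fold change 0.03). Among 8 markers of type 1 conventional dendritic cells 3 passed as lower in knockout hosts, Itgae, Wdfy4 and Xcr1, against 1.05% of all tested genes. The 8 summed to 498 to 545 CPM in knockout and 442 to 762 CPM in WT libraries. Irf8 made up most of that sum, and without it the other 7 summed to 67.2 to 94.7 CPM in knockout and 146 to 224 CPM in WT libraries. Of the defining markers, Xcr1 averaged 7.79 CPM in knockout and 35.1 CPM in WT libraries, and Clec9a 7.15 CPM in knockout and 7.49 CPM in WT libraries (log2 fold change -0.07). The other lists are given beside the results they moved with. In bulk RNA, fewer cells of a type and less RNA per cell cannot be told apart.

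Inhba rose in knockout hosts and was the single gene of the 8 past the threshold. Tnf and Il6 had higher values in each knockout library than in any WT library without passing, and Osm, Lif, Il15, Il10 and Tgfb1 overlapped between the groups. Genes were called at 0.05 by the quasi-likelihood test of edgeR, adjusted after Benjamini and Hochberg over all 12580 genes, by which 2.81% of tested genes differed, 1.76% being higher and 1.05% lower in knockout hosts. Groups did not overlap, with knockout libraries higher, for 3 of the 8 cytokine genes and for 11.2% of all tested genes; with knockout libraries lower, the share was 0 of 8, against 10.6% of all tested genes. The median log2 fold change was 0.16 over the 8 genes and -0.0022 over all tested genes, and 4 of the 8 were above 0. None of the 8 lies on chromosome 2, which carries Mavs.

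**Figure D1:**
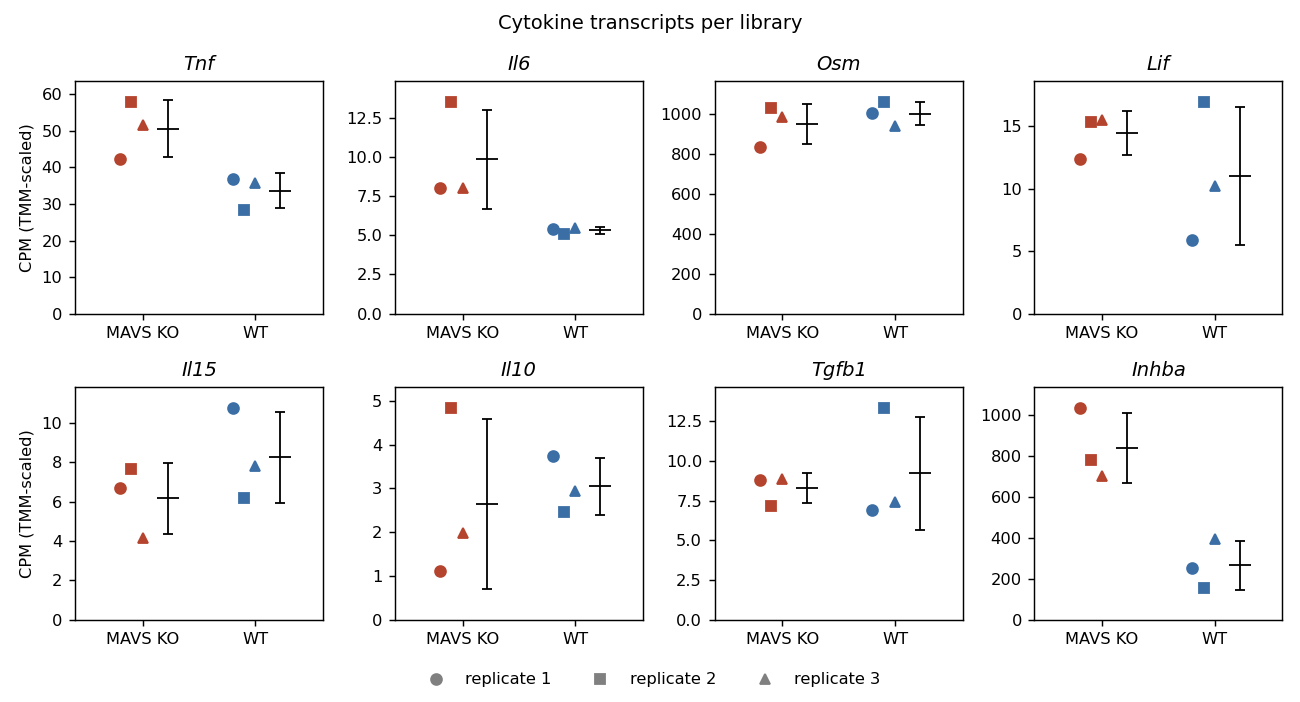
TMM-scaled CPM of the 8 cytokine genes in each library, MAVS KO left of WT, with 1 symbol per replicate number and bars for mean ± SD (n = 3 per group). The 3 knockout points lie above all 3 WT points for Inhba, Tnf and Il6 and mix with them for the other genes.

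Per kilobase of exon, which allows levels of different genes to be compared, Osm was the most abundant of the 8 in both groups. It stood at 419 ± 44.3 CPM per kb in knockout and 442 ± 26.2 CPM per kb in WT libraries (SD, n = 3 each). Inhba came next at 131 ± 26.9 CPM per kb in knockout and 41.7 ± 18.7 CPM per kb in WT libraries, followed by Tnf at 30.9 ± 4.75 CPM per kb in knockout and 20.5 ± 2.88 CPM per kb in WT libraries. The ranges of these 3 genes did not overlap with one another in either group. The remaining 5 genes all averaged between 1.64 and 4.05 CPM per kb in knockout libraries and between 1.83 and 3.65 CPM per kb in WT libraries, and each overlapped with its neighbour in the order. Among those 5, Il6 ranked first in knockout libraries and Il15 first in WT libraries. By mean CPM over the 6 libraries Osm was above 99.0% of tested genes, Inhba above 98.0% and Tnf above 70.9%, whereas Il10 was above 21.2%.

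**Figure D2:**
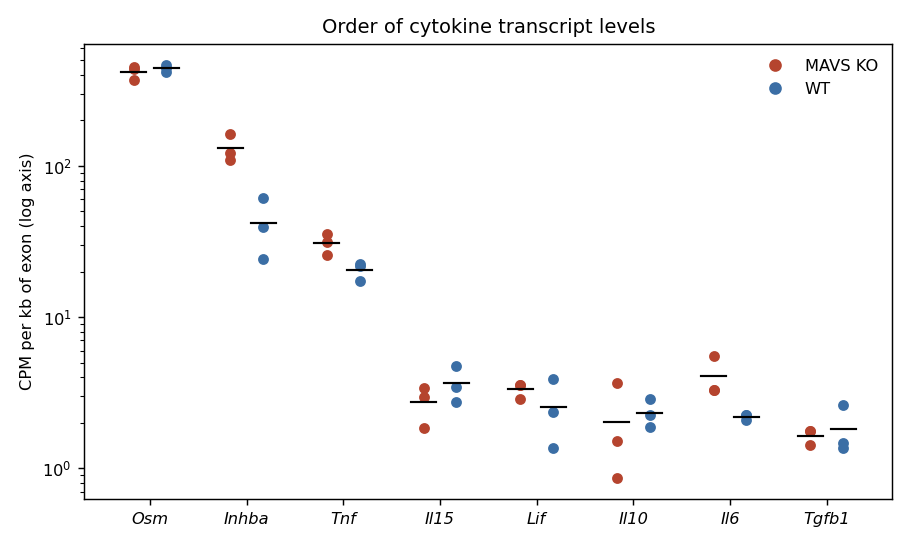
Levels of the 8 cytokine genes in CPM per kb of exon on a log axis, with 1 point per library and a line at each group mean (n = 3), MAVS KO left of WT. Osm, Inhba and Tnf are separated from one another and from a cluster of 5 genes that lie between 0.858 and 5.55 CPM per kb.

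Regulatory sequence around the 3 genes whose groups did not overlap is printed here because Tnf and Il6 are known to be controlled both at the promoter and by the stability of their messenger RNA. Promoters of 5 of the 8 genes matched in RefSeq (build GRCm38.p6). Each sequence runs 5′ to 3′ on the gene's own strand from 250 bases before the first transcribed base through the first 50 transcribed bases, and positions below are counted from that base as 0. Capitals mark matches on either strand to any of 8 motifs: TATAAA, the AP-1 motif TGANTCA, the C/EBP motif TTGCNNAA, the GC box GGGCGG, the core of the interferon-stimulated response element, the STAT motif TTCNNNGAA, the cAMP motif TGACGTCA and the kappaB consensus.
Tnf (chr17:35201958-35202257, minus strand): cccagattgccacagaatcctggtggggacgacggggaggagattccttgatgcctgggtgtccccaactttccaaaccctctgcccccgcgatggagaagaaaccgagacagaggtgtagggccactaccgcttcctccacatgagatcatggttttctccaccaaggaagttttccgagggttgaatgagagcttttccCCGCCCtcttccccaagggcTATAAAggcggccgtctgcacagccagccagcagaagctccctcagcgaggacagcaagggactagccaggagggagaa
Il6 (chr5:30012864-30013163, plus strand): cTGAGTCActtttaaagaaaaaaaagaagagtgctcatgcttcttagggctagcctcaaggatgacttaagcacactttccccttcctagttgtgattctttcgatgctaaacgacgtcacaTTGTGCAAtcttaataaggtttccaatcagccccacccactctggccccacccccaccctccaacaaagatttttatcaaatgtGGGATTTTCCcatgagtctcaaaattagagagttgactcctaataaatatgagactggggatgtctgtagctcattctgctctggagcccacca
Inhba (chr13:16011601-16011900, plus strand): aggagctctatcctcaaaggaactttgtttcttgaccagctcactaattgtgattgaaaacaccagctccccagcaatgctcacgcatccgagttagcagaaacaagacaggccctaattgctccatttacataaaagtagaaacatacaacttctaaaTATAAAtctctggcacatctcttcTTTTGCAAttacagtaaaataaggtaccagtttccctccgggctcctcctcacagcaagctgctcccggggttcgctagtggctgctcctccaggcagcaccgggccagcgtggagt

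In these 3 windows no motif overlapped another. The kappaB consensus was matched in Il6, starting at position -44, and in the windows of Lif and Tgfb1, and it was found in 8.46% of the 32851 promoters of the same length. TATAAA was matched in Tnf (position -29) and Inhba (position -91) and in 13.6% of all promoters. The AP-1 motif was matched in Il6 (position -249) and Lif and in 7.81% of promoters, and the C/EBP motif in Il6 (position -128) and Inhba (position -67) and in 10.8%. The GC box was matched in Tnf (position -49), 6 times in Tgfb1 and in 35.7% of promoters. The interferon, STAT and cAMP motifs had no match in any of the 5 windows, and occur in 3.44%, 8.30% and 1.79% of promoters. A match describes the letters and not a bound site.

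All 8 genes carry the pentamer ATTTA in their 3′ untranslated region (UTR), the core of the AU-rich elements through which cytokine messages are marked for decay. In GENCODE M21 transcripts (GRCm38) 61.7% of 20637 protein-coding genes have at least 1, with a median of 1 and 1.94 per kb of 3′ UTR over all of them. Tnf has 8 in 764 bases, Il6 has 6 in 427, Il10 has 6 in 706, Osm has 6 in 1017 and Lif has 7 in 3180 bases. Inhba has 21 in a 3′ UTR of 4492 bases, a number larger than in 99.3% of genes, at 4.675 per kb. Il15 and Tgfb1 have 1 each. The densest stretches of 30 bases are printed for the 5 genes with more than 1 pentamer in such a stretch, with the pentamers in capitals.
Tnf (chr17:35199679-35199708, minus strand): attATTTAttATTTATTTAttATTTATTTA
Il6 (chr5:30019677-30019706, plus strand): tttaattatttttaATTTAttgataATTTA
Osm (chr11:4240939-4240968, plus strand): aatccgttttatATTTAtaaggcctATTTA
Lif (chr11:4272414-4272443, plus strand): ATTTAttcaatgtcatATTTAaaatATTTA
Inhba (chr13:16029033-16029062, plus strand): ctgattttttcaacttatATTTAttATTTA
The Tnf stretch holds 5 pentamers, the Lif stretch 3, and those of Il6, Osm and Inhba 2 each.

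Inhba (ENSMUSG00000041324, chromosome 13, 16011851 to 16031621, mm10) encodes the beta A subunit shared by activin A and inhibin A. It had 1031, 780 and 702 CPM in the knockout libraries, from 18350, 11627 and 9585 counts, against 253, 154 and 392 CPM in the WT libraries, from 5136, 2876 and 8506 counts. The lowest knockout library was above the highest WT library. The means were 837 ± 172 CPM in knockout and 266 ± 120 CPM in WT libraries (SD, n = 3 each). The log2 fold change was 1.65 (SE 0.28, 95% interval 1.03 to 2.28), a 3.15-fold difference, with an edgeR adjusted p of 0.0184 that ranked it 90 among the 12580 genes. The direction held in all 6 edgeR fits that left out a library, with log2 fold changes from 1.37 to 2.04, but the call did not: adjusted p was 0.063, 0.0578 and 0.0684 without knockout replicate 1, 2 or 3 and 0.0567 without WT replicate 1, against 0.0227 and 0.00563 without WT replicate 2 or 3. In those 4 fits without a called member 36 to 193 genes passed in all, against 354 with all libraries. The gene bodies of 2 annotated genes on the opposite strand overlap Inhba without sharing exonic bases with it.

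The summed level of several marker lists was also higher in each knockout library than in any WT library, in some lists through a single gene. Sums are therefore also given without the gene whose group means differed most, a gene picked after its values were seen. Of all tested genes, 1.76% were called higher and 1.05% lower in knockout hosts. The 8 monocyte markers summed to 8766 to 17139 CPM in knockout and 5942 to 7132 CPM in WT libraries, with Chil3 higher, Thbs1 lower and a median log2 fold change of -0.02. Without Chil3 the other 7 summed to 4655 to 5529 CPM in knockout and 4272 to 6617 CPM in WT libraries, which overlapped. The 7 endothelial markers summed to 118 to 223 CPM in knockout and 49.7 to 97.8 CPM in WT libraries, with Flt1 alone higher and Cdh5 at 0 in the knockout libraries. Without Flt1 they summed to 50.7 to 85.3 CPM in knockout and 32.6 to 54.3 CPM in WT libraries and overlapped. The 7 markers of plasmacytoid dendritic cells summed to 133 to 151 CPM in knockout and 106 to 132 CPM in WT libraries, with 0 of 4 tested passing. They overlapped without Bst2, at 46.0 to 66.9 CPM in knockout and 53.7 to 65.5 CPM in WT libraries, and Siglech averaged 1.23 CPM in knockout and 0.48 CPM in WT libraries.

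For the next 3 lists the groups stayed separated without that gene. The 8 markers of mature migratory dendritic cells summed to 258 to 403 CPM in knockout and 199 to 208 CPM in WT libraries. Without Ccl22 they summed to 185 to 261 CPM in knockout and 141 to 157 CPM in WT libraries. Of 7 tested, 3 were called higher, Cd200, Ccl22 and Ccr7, against 1.76% of all tested genes. The 6 markers of type 2 conventional dendritic cells summed to 2727 to 4403 CPM in knockout and 2357 to 2620 CPM in WT libraries. Of them 1 was higher, Sirpa, and 1 lower, Cd209a, with a median log2 fold change of 0.04. Without Mgl2 they summed to 1059 to 1101 CPM in knockout and 817 to 897 CPM in WT libraries. Most of that was Sirpa, which lies within 15 Mb of Mavs and averaged 826 CPM in knockout and 562 CPM in WT libraries. Cd209a averaged 22.2 CPM in knockout and 80.1 CPM in WT libraries (log2 fold change -1.86). The 10 neutrophil markers summed to 94.0 to 99.4 CPM in knockout and 55.8 to 58.0 CPM in WT libraries, and without Mmp8, which alone passed, to 35.7 to 36.0 CPM in knockout and 25.8 to 31.8 CPM in WT libraries. Most of that rest was Csf3r, at 24.6 CPM in knockout and 19.8 CPM in WT libraries (edgeR adjusted p = 0.479). Taken singly, Csf3r, S100a8, Cxcr2 and Ltf each overlapped between the groups. Ly6g, Ngp, Camp and S100a9 averaged under 0.1 CPM in both groups. B cell markers stood at 10.2 to 12 CPM in knockout and 31.4 to 52.2 CPM in WT libraries, mostly Ighm, which fell. Mast cell and basophil markers stood at 10.3 to 16.1 CPM in knockout and 22.1 to 31.6 CPM in WT libraries, nearly all of it Kit, which fell. Epithelial markers, at 423 to 681 CPM in knockout and 366 to 545 CPM in WT libraries, overlapped and were nearly all Cdh1, with the other 6 summing to 9.59 to 11.2 CPM in knockout and 11.2 to 20.3 CPM in WT libraries. Macrophage sums overlapped, as given above, but were mostly Lyz2. Taken singly, Fcgr1, Cd68, Trem2, Mrc1, C1qa, C1qb and C1qc were higher in each knockout library than in any WT library, and Apoe was lower. Over all tested genes these shares were 11.2% higher and 10.6% lower. Lyz2, Adgre1, Mertk and Csf1r overlapped. Sums of 8 fibroblast markers overlapped too, at 17.4 to 61.8 CPM in knockout and 27.2 to 47.1 CPM in WT libraries. The part of these cells in the Inhba difference was not tested.

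Tgfb1 (ENSMUSG00000002603, chromosome 7, 25687002 to 25705077, mm10) encodes TGF-beta 1, the other TGF-beta family ligand of the set. It had 8.82, 7.18 and 8.86 CPM in knockout libraries and 6.90, 13.3 and 7.42 CPM in WT libraries, with WT replicate 2 the highest and the groups overlapping. Its log2 fold change was -0.15 (SE 0.29, 95% interval -0.78 to 0.48; edgeR adjusted p = 0.865), and it was 0.20 without WT replicate 2. The next gene upstream on the same strand, B9d2, ends 443 bases before Tgfb1 and had 854, 758 and 645 counts in knockout and 1000, 782 and 836 counts in WT libraries, several times those of Tgfb1 (157, 107 and 121 in knockout, 140, 249 and 161 in WT libraries). The gene models used in the authors' counting are not stated in the sources, so whether reads of Tgfb1 were assigned to another model was not tested.

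Within a library, the ratio of 2 genes does not depend on the scaling between libraries. In counts not scaled for exon length, Inhba outnumbered Tgfb1 by 117, 109 and 79.2 to 1 in the knockout libraries. In the WT libraries it did so by 36.7, 11.6 and 52.8 to 1. The size of these ratios rests on the Tgfb1 counts, whose assignment was not tested, as said above. Every knockout ratio was above every WT ratio, a difference of 1.83 in mean log2 ratio with p = 0.10 by a two-sided exact permutation test, the smallest p that 3 against 3 libraries can give.

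**Figure D3:**
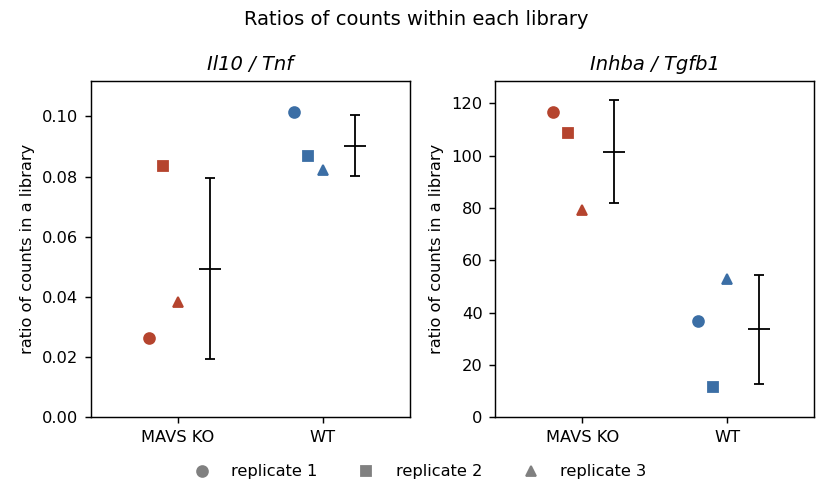
Ratio of counts of Il10 to Tnf and of Inhba to Tgfb1 in each library, MAVS KO left of WT, with 1 symbol per replicate number and bars for mean ± SD (n = 3 per group). The Inhba to Tgfb1 ratios separate the groups, whereas for Il10 to Tnf the knockout replicate 2 (0.0834) lies within the WT range.

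Tnf (ENSMUSG00000024401, chromosome 17, 35199381 to 35202007, mm10) encodes tumour necrosis factor. It had 42.4, 57.9 and 51.7 CPM in knockout libraries and 36.9, 28.2 and 35.9 CPM in WT libraries. The groups did not overlap, and the closest pair was knockout replicate 1 and WT replicate 1. Its log2 fold change was 0.59 (SE 0.16, 95% interval 0.23 to 0.94), and it did not pass (edgeR adjusted p = 0.0905). It passed with the DESeq2 Wald test (adjusted p = 0.0216) and in edgeR with no filter on low counts (adjusted p = 0.0142). With the other alternatives tried adjusted p was between 0.0766 and 0.317.

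Il6 (ENSMUSG00000025746, chromosome 5, 30013114 to 30019981, mm10) encodes interleukin-6. It had 8.03, 13.5 and 7.98 CPM in knockout libraries, from 143, 201 and 109 counts, and 5.42, 5.07 and 5.48 CPM in WT libraries, from 110, 95 and 119 counts. The WT libraries lay within 0.5 CPM of one another, and knockout replicate 2 stood apart from the other two knockout libraries. Its log2 fold change was 0.88 (SE 0.27, 95% interval 0.28 to 1.48, edgeR adjusted p = 0.13), and without knockout replicate 2 it was 0.59 (edgeR adjusted p = 0.43). The same library was also the highest of the 6 for Tnf and for Il10.

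Osm and Lif lie side by side on chromosome 11, 16530 bases apart on the same strand, and encode ligands that signal through gp130. Osm (ENSMUSG00000058755, 4236420 to 4241026, mm10), the gene of oncostatin M, had 839, 1031 and 987 CPM in knockout libraries and 1008, 1062 and 943 CPM in WT libraries. The groups overlapped, and with 13481 to 20471 counts per library the interval of its log2 fold change of -0.08 (edgeR adjusted p = 0.805, SE 0.11) ran from -0.31 to 0.16, the narrowest of the 8. Lif (ENSMUSG00000034394, 4257557 to 4272514, mm10), the gene of leukaemia inhibitory factor, had 12.4, 15.4 and 15.5 CPM in knockout libraries and 5.91, 16.9 and 10.2 CPM in WT libraries. WT replicate 1 was the lowest and WT replicate 2 the highest of all 6, so the groups overlapped. Its log2 fold change of 0.39 (edgeR adjusted p = 0.637, SE 0.32) was 0.09 without WT replicate 1 and 0.83 without WT replicate 2, and neither passed.

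Il10 (ENSMUSG00000016529, chromosome 1, 131019845 to 131024974, mm10) encodes interleukin-10, which restrains macrophages and dendritic cells. It had 1.12, 4.83 and 1.98 CPM in knockout libraries, from 20, 72 and 27 counts, and 3.75, 2.46 and 2.95 CPM in WT libraries, from 76, 46 and 64 counts. The knockout libraries held both the lowest and the highest values of the 6. The log2 fold change of -0.21 (edgeR adjusted p = 0.893, SE 0.51) had a 95% interval of -1.35 to 0.92, the widest of the 8, with 20, 72 and 27 counts behind the knockout values. It was -0.98 without knockout replicate 2 and 0.16 without knockout replicate 1, and neither passed. For each Tnf count there were 0.0265, 0.0834 and 0.0382 Il10 counts in knockout libraries and 0.102, 0.087 and 0.0822 in WT libraries. These ratios overlapped (difference in mean log2 ratio -1.03, p = 0.20 by a two-sided exact permutation test, where 0.10 is the smallest possible).

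Il15 (ENSMUSG00000031712, chromosome 8, 82331632 to 82403222, mm10) encodes interleukin-15, which sustains natural killer and memory CD8 T cells. It had 6.68, 7.65 and 4.17 CPM in knockout libraries and 10.7, 6.19 and 7.83 CPM in WT libraries. The groups overlapped, and the log2 fold change was -0.42 (SE 0.30, 95% interval -1.09 to 0.26; edgeR adjusted p = 0.577). Natural killer markers, 8 genes summing to 13.8 to 32.1 CPM in knockout and 9.72 to 26.1 CPM in WT libraries, and T cell markers, 11 genes summing to 19.2 to 38.1 CPM in knockout and 24.6 to 32.7 CPM in WT libraries, overlapped as well, and no marker of either list passed. From few counts, Cd8a (2.48 CPM in knockout, 0.61 CPM in WT libraries; edgeR adjusted p = 0.251) and Cd8b1 (1.04 and 0.46 CPM; edgeR adjusted p = 0.432) were higher in each knockout library than in any WT library. Such separation held for 11.2% of all tested genes. Cd4, Trac, Icos and Foxp3 had log2 fold changes below 0 and overlapped.

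**Figure D4:**
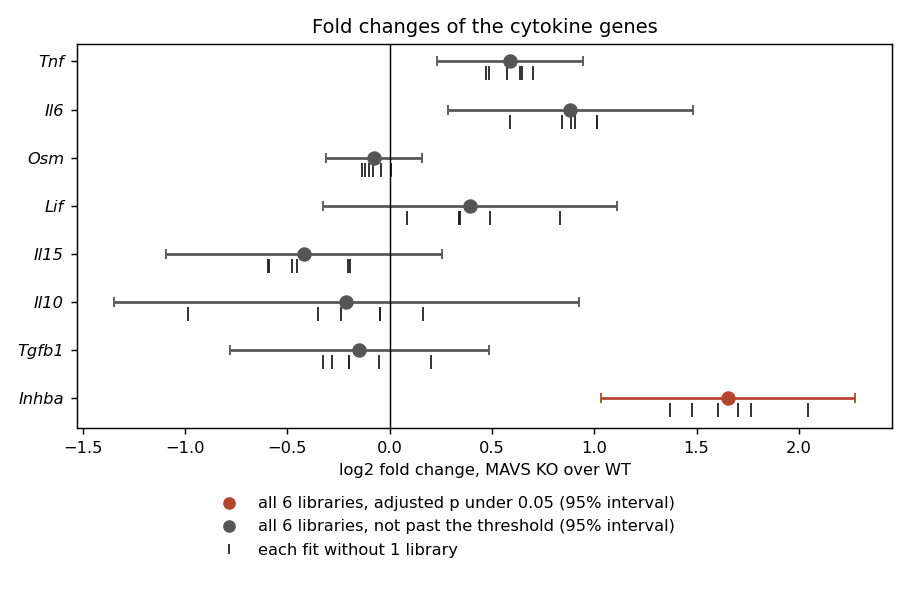
Log2 fold changes (MAVS KO over WT) of the 8 cytokine genes with 95% intervals computed from the edgeR F statistic. Below each are the values from the 6 fits that left out 1 library. Inhba is the single gene past the threshold and its 6 ticks lie between 1.37 and 2.04, whereas ticks of Osm, Il10 and Tgfb1 fall on both sides of 0.

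Relatives of the 8 ligands were followed in lists chosen by family. Of 10 tested TNF superfamily ligands none passed (2 had an unadjusted p under 0.05, against 16% of all tested genes; 1 was called by the DESeq2 Wald test and 0 by limma-voom). Tnfsf12, the gene of TWEAK, averaged 8.39 ± 2.43 CPM in knockout and 3.88 ± 1.27 CPM in WT libraries (SD, n = 3 each; log2 fold change 1.11, SE 0.34, edgeR adjusted p = 0.125), and the B cell survival factor Tnfsf13b averaged 46.2 CPM in knockout and 30.9 CPM in WT libraries (edgeR adjusted p = 0.17). Lta and Ltb, which flank Tnf, were low: Lta had 22, 2 and 4 counts in knockout and 5, 11 and 8 counts in WT libraries, and Ltb averaged 2.80 CPM in knockout and 3.50 CPM in WT libraries (edgeR adjusted p = 0.819). Of 3 tested ligands of the interleukin-6, interleukin-10 and interleukin-15 families 1 rose, Il27, the p28 subunit of interleukin-27. Il27 averaged 14.7 CPM in knockout and 3.75 CPM in WT libraries (log2 fold change 1.97, SE 0.27, edgeR adjusted p = 0.0107) and passed in all 6 fits that left out a library. Clcf1, a gp130 ligand, averaged 9.72 CPM in knockout and 9.69 CPM in WT libraries. Of 5 tested ligands of the TGF-beta superfamily none passed (1 unadjusted; 0 by DESeq2 and 0 by limma-voom); Tgfb3 averaged 21.4 ± 3.55 CPM in knockout and 11.7 ± 7.23 CPM in WT libraries (SD, n = 3 each), with an edgeR adjusted p of 0.255.

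None of 16 tested receptor genes passed (5 unadjusted; DESeq2 called 1 higher and 1 lower, limma-voom 0). Their median log2 fold change was 0.16, and -0.01 with library size alone as the scaling, which moved the median of all tested genes to -0.17. Of the 16, groups did not overlap for 6 with knockout libraries higher and 1 lower, against 11.2% and 10.6% of all tested genes. The 3 with the smallest p, a choice that favours separated groups, were among them. Tgfbr1, the type I receptor of TGF-beta, averaged 65.7 ± 8.52 CPM in knockout and 100.3 ± 17.0 CPM in WT libraries (SD, n = 3 each; log2 fold change -0.61, SE 0.15, edgeR adjusted p = 0.063). Il15ra, which presents interleukin-15 on the cell surface, averaged 24.1 ± 5.15 CPM in knockout and 14.8 ± 1.29 CPM in WT libraries (SD, n = 3 each; log2 fold change 0.70, SE 0.19, edgeR adjusted p = 0.0918). Tnfrsf1a, the TNF receptor that signals cell death and NF-kB, averaged 211 CPM in knockout and 164 CPM in WT libraries (edgeR adjusted p = 0.161). Il10ra, the ligand-binding chain for interleukin-10, had a log2 fold change of -0.04 (SE 0.12), and Osmr was nearly undetected, at 0.452 CPM in knockout and 0.26 CPM in WT libraries, beside the abundant Osm. The activin receptor gene Acvr1b averaged 6.13 CPM in knockout and 3.87 CPM in WT libraries without passing.

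Among 16 tested genes for shedding, activation and extracellular inhibition of these ligands, Thbs1 fell and 15 did not pass (5 unadjusted; DESeq2 called 1 higher and 1 lower, limma-voom 1 lower). Thbs1, thrombospondin 1, can activate latent TGF-beta; it averaged 175 ± 89.5 CPM in knockout and 627 ± 253 CPM in WT libraries (SD, n = 3 each; log2 fold change -1.84, SE 0.37, edgeR adjusted p = 0.0327), lies within 15 Mb of Mavs and lost its call with robust dispersion estimation. Furin, the convertase that cuts the prodomains of TGF-beta and activin, averaged 829 ± 31.9 CPM in knockout and 438 ± 183 CPM in WT libraries (SD, n = 3 each; log2 fold change 0.92, SE 0.26, edgeR adjusted p = 0.102). Fst, the gene of follistatin, which binds activin, averaged 1.09 CPM in knockout and 0.377 CPM in WT libraries (edgeR adjusted p = 0.287), far under Inhba. Adam17, which sheds TNF, averaged 224 CPM in knockout and 204 CPM in WT libraries, and its partner Rhbdf2 averaged 96.5 CPM in knockout and 69.9 CPM in WT libraries (edgeR adjusted p = 0.179).

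Of 24 adaptors, JAK-STAT and SMAD genes none passed (3 unadjusted; DESeq2 called 1 higher and limma-voom 1 higher). Socs1, a feedback inhibitor of JAK kinases, averaged 66.6 ± 2.11 CPM in knockout and 31.3 ± 13.5 CPM in WT libraries (SD, n = 3 each; log2 fold change 1.09, SE 0.26, edgeR adjusted p = 0.054). Of 15 regulators of cytokine messenger RNA decay and translation none passed (1 unadjusted; 0 by DESeq2 and 0 by limma-voom), with log2 fold changes from -0.27 to 0.79; Mapkapk2, a kinase that stabilises AU-rich messages, averaged 34.1 CPM in knockout and 24.0 CPM in WT libraries (edgeR adjusted p = 0.242). Of 28 transcription factors with known roles at cytokine genes 1 fell, Nfkbid, an atypical nuclear member of the IkB family, and 27 did not pass. Over all tested genes 1.05% were called lower. In that list 11 of 28 had an unadjusted p under 0.05, against 16% of all tested genes. The DESeq2 Wald test called 4 higher and 2 lower in the list, against 437 higher and 341 lower of all 12580. Limma-voom called 1 lower, against 102 lower of all 12580. Groups did not overlap for 6 with knockout libraries higher and 4 lower, against 11.2% and 10.6% of all tested genes. Nfkbid averaged 117 CPM in knockout and 185 CPM in WT libraries (log2 fold change -0.66, SE 0.11, edgeR adjusted p = 0.0164), and passed in 3 of 6 fits that left out a library. Rel, the c-Rel subunit of NF-kB, averaged 115 CPM in knockout and 162 CPM in WT libraries (edgeR adjusted p = 0.0757), and Hif1a, the oxygen-regulated factor, averaged 455 CPM in knockout and 337 CPM in WT libraries (edgeR adjusted p = 0.107).

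Target genes of the cytokines were counted as lists chosen from textbook knowledge, but with earlier results of these data known. The shares set beside those of all tested genes are therefore a description and not an independent test. Of all tested genes, 16% had an unadjusted p under 0.05, 1.76% were called higher and 1.05% lower. Groups did not overlap for 11.2% with knockout libraries higher and for 10.6% with knockout libraries lower. Of all 12580 genes the DESeq2 Wald test called 437 higher and 341 lower, and limma-voom 217 higher and 102 lower. Of 25 tested TNF and NF-kB targets 3 rose, none fell and 22 did not pass, with a median log2 fold change of 0.32 (0.15 with library size alone), against 1.76% of all tested genes called higher. Of the 25, 13 had an unadjusted p under 0.05, and the DESeq2 Wald test called 7 higher and limma-voom 4 higher. The 3 were Ptgs2, the inducible cyclooxygenase (0.85, SE 0.13, edgeR adjusted p = 0.0164), Sod2, the mitochondrial superoxide dismutase (0.64, SE 0.13, edgeR adjusted p = 0.0327), and the neutrophil chemokine Cxcl2 (0.49, SE 0.10, edgeR adjusted p = 0.0364). Groups did not overlap, with knockout libraries higher, for 13 of the 25, against 11.2% of all tested genes. Of 18 genes listed as interleukin-10 and STAT3 targets 2 rose and 16 did not pass, against the same 1.76% of all tested genes. The 2 were Il7r (1.07, SE 0.14) and the interleukin-1 antagonist Il1rn (0.73, SE 0.11). Whether they responded to interleukin-10 in these cells was not tested. Of these 18, 6 had an unadjusted p under 0.05, DESeq2 called 5 higher and limma-voom 2 higher, groups did not overlap for 5 with knockout libraries higher and 2 lower, and the median was 0.19 (0.03 with library size alone). Of 20 TGF-beta, activin and SMAD targets 1 rose and 2 fell: Id2, an inhibitor of helix-loop-helix factors, by 0.51 (SE 0.10), against Itgae (-1.85, SE 0.36), the integrin CD103 that also marks type 1 conventional dendritic cells, and Thbs1. Of these 20, 7 had an unadjusted p under 0.05, DESeq2 called 3 higher and 2 lower and limma-voom 1 higher and 1 lower, groups did not overlap for 5 with knockout libraries higher and 3 lower, and the median was 0.24 (0.08 with library size alone). Of 20 other inflammatory cytokines and growth factors 3 rose and 17 did not pass; 11 had an unadjusted p under 0.05, DESeq2 called 4 higher and 1 lower and limma-voom 2 higher, groups did not overlap for 7 with knockout libraries higher and 2 lower, and the median was 0.46 (0.29 with library size alone). Hbegf, an epidermal growth factor receptor ligand, averaged 178 ± 77.6 CPM in knockout and 60.6 ± 10.6 CPM in WT libraries (SD, n = 3 each; log2 fold change 1.55, SE 0.26, edgeR adjusted p = 0.0178). The others were Il1a (0.97, SE 0.12), within 15 Mb of Mavs, and Il12a (3.26, SE 0.64), from few counts. Il12a and Itgae lost their call with limma-voom, and Cxcl2, Id2 and Sod2 with library size alone as the scaling. In the 6 edgeR fits that left out a library, Il1a, Il27 and Il7r passed in all 6, Il1rn and Ptgs2 in 4, Hbegf in 3, Thbs1 in 2, Id2, Sod2, Itgae and Il12a in 1 and Cxcl2 in 0.

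**Figure D5:**
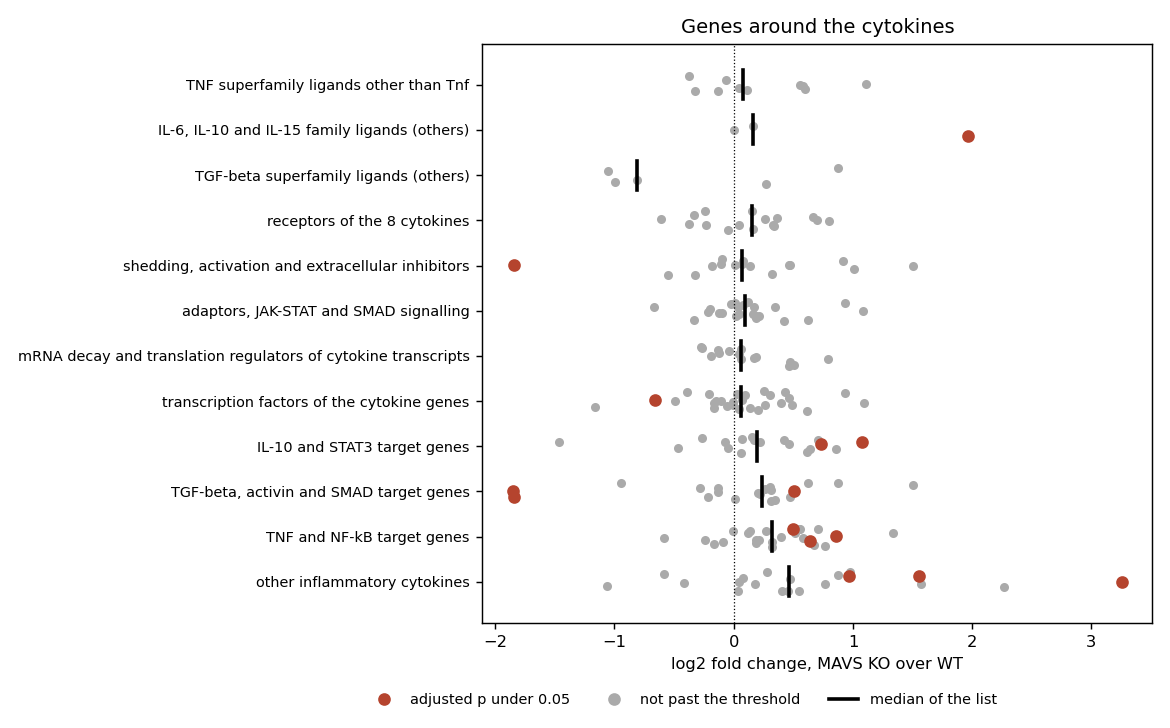
Log2 fold changes (MAVS KO over WT) of the tested genes in 12 lists around the 8 cytokines, 1 point per gene, with genes past the threshold coloured and a line at each list's median. Coloured points are few: 0 among receptors, adaptors and decay regulators, 3 among TNF and NF-kB targets.

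Across the 6 libraries, the log2 CPM of Tnf, Il6 and Inhba, the 3 genes whose groups did not overlap, was correlated. Pearson r was 0.90 for Tnf and Il6, 0.83 for Tnf and Inhba and 0.77 for Il6 and Inhba. The n = 6 libraries share the group difference and the scaling. Within the knockout libraries Inhba was highest in replicate 1 (1031 CPM), where Tnf was lowest (42.4 CPM). Within the WT libraries both were lowest in replicate 2 (154 CPM for Inhba, 28.2 CPM for Tnf). Over all 6 libraries Lif and Il15 varied in opposite directions (r = -0.78). Among protein-coding genes of at least 5 CPM the closest in pattern to Inhba were Pqlc3 (r = 0.998) and Mmp12, the macrophage elastase (r = 0.995), which averaged 15335 CPM in knockout and 6916 CPM in WT libraries. The closest to Tnf were B2m, the light chain of MHC class I, which lies within 15 Mb of Mavs, and Prdx5 (r = 0.992 each), and to Il6 Wdr82 (r = 0.986) and Igsf6 (r = 0.982). For Osm they were Lypla1 and Camta1, for Lif Ndst1 and Ckap5, for Il10 Cavin3 and Has1, for Il15 Ccdc85b and Terf1, and for Tgfb1 Matr3 and Tpcn1, with r from 0.953 to 0.997. These values describe 6 libraries, and the highest of many correlations over 6 points are near 1 for each of the 8 genes.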

How the data were processed

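Messenger RNA was sequenced from total RNA of tumour dendritic cells in 6 samples. Raw read counts per Ensembl gene were deposited as whole numbers, made by the authors before deposit; the submitters' processing notes name HTSeq, HISAT, HISAT2, DESeq2 and the build mm10, with no versions or roles. Gene models and strandedness of the counting are not given in the sources. Symbols and positions came from GENCODE M21 (GRCm38, the mm10 build), which matched 26383 of 26519 identifiers.

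The main test was edgeR 4.0.16 under R 4.3.3 (genes kept by filterByExpr with a minimum count of 10 and a minimum total of 15, TMM scaling, quasi-likelihood F test without covariates, Benjamini-Hochberg adjustment, threshold 0.05). CPM used TMM library sizes. Standard errors were computed as the absolute log2 fold change divided by the square root of the edgeR F statistic. The 95% intervals added and subtracted that error times the t quantile at the degrees of freedom of the test. Replicates of a group differed beyond sampling noise (chi-square over its degrees of freedom 15.3 to 39.2), so none was a duplicate. Alternatives were other scalings, filters and tests (DESeq2 1.42.0, limma-voom 3.58.1), a replicate block and leaving out each library. The 8 genes and the lists were chosen with earlier results of these data known. Named genes are the 8, Mavs, list members past the threshold plus up to 3 further with the smallest p, and the 2 genes most alike in pattern to each of the 8. Lta, Ltb, Il10ra, Osmr, Acvr1b, Fst, Adam17 and B9d2, and the cell type markers given by name, fall outside that rule and were chosen for their role after their values were seen.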

Additional observations from a re-analysis of the deposited data

How the results depend on the processing

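With all 6 libraries 354 genes passed, 222 higher and 132 lower in knockout hosts, and 1 of the 8 cytokine genes, Inhba. The number was 778 with the DESeq2 Wald test and 924 with no filter on low counts, where 2 cytokine genes passed, Inhba and Tnf; Tnf then had log2 fold changes of 0.58 (DESeq2) and 0.59 (no filter). Leaving out each library gave 36 to 277 genes and 0 to 1 cytokine gene, with 2 to 4 of the 8 at an unadjusted p under 0.05. With library size alone the split was 102 higher and 341 lower and the median of all tested genes -0.17, but the 8 genes kept their signs. Over the fits without 1 library the log2 fold change of Inhba was 1.37 to 2.04, of Il10 -0.98 to 0.16, of Osm -0.14 to 0.0068 and of Tgfb1 -0.32 to 0.20, so the last 3 changed sign without passing; the ratio differences were 1.19 to 2.28 for Inhba to Tgfb1 and -1.50 to -0.67 for Il10 to Tnf. The causes were not tested. With the replicate number as a block 414 genes passed, Inhba among them (log2 fold change 1.74), and paired over replicate numbers both ratios had an exact sign-flip p of 0.25, the smallest 3 pairs can give. Same-numbered libraries correlated at 0.03, 0.11 and -0.03 in their deviations from the group means, so the numbers were not read as pairs. Il10 could not be fitted at a mean of at least 5 CPM.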
